A study of Mus musculus with 8 samples.

Results

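The immunity-related GTPases (IRGs) are large interferon-inducible GTPases with which mouse cells attack the membranes of vacuoles that hold intracellular parasites and bacteria. They were described here as 7 genes, Irgm1, Irgm2, Igtp, Iigp1, Tgtp1, Tgtp2 and Ifi47, chosen by gene symbol among the 56691 genes of the deposited table. All 7 had a row, and all 7 were among the 15870 genes that passed the filter on low counts. RNA had been sequenced from 8 libraries of Kupffer cells, liver-resident macrophages: 4 from VSIG4 KO mice and 4 from WT mice, all with livers that carried metastases of the mouse melanoma line B16F10, injected a week before. The cells were sorted as living, CD45-positive and Tim-4-positive. The sources used here do not give the age, sex or strain of the mice or how the KO allele was made. They also do not say that each library came from its own mouse, so the p-values reflect variation among libraries that may be partly technical.

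In the mouse, IRG proteins fall into regulators and effectors. The regulators Irgm1, Irgm2 and Igtp (Irgm3) sit on the cell's own membranes, where they hold the effectors in an inactive state, and Irgm1 also acts in autophagy. The effectors, among them Iigp1 (Irga6), Tgtp1 and Tgtp2 (the Irgb6 copies) and Ifi47 (Irgd), gather on pathogen vacuoles and break them open. Their transcription is switched on by interferon gamma through GAS elements in their promoters, and by type I interferons through ISRE elements. Kupffer cells take up bacteria and parasites from portal blood, and interferon from T cells and natural killer (NK) cells is the classical inducer of these genes in macrophages.

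Promoter stretches are printed first for the 5 members in which a match to the patterns below was found, with GAS matches beside ISRE matches in 4. Whether these patterns bear on how the members varied was not tested. The RefSeq promoter table (build GRCm38.p6) held 6 of the 7 members; Iigp1 had no entry. The 250 bases before each start were searched on both strands for a GAS pattern, TTCNNNGAA, which reads the same on both strands, and an ISRE pattern, GAAA and again GAAA with any 2 bases between them. Capitals mark the matches, and each line runs 5′ to 3′ along the strand of the gene.
Irgm1, chr11:48871425-48871465, minus strand: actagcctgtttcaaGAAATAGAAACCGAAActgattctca
Irgm2, chr11:58214887-58214932, plus strand: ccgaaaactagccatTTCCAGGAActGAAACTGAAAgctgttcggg
Igtp, chr11:58199496-58199541, plus strand: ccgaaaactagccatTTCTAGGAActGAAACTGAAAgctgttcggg
Tgtp1, chr11:48992304-48992349, minus strand: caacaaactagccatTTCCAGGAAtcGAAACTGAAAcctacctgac
Tgtp2, chr11:49064263-49064308, minus strand: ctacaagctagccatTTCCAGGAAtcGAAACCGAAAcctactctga

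In Irgm2, Igtp, Tgtp1 and Tgtp2 a GAS match was followed, 2 bases on, by an ISRE match. The GAS match began at position -75 before the start in Irgm2, -45 in Igtp, -88 in Tgtp1 and -81 in Tgtp2. Irgm1 had overlapping ISRE matches from -30 and from -24 and no GAS match, and Ifi47 had neither pattern in these 250 bases. Around the ISRE match the regulators Irgm2 and Igtp were identical at 34 of 35 bases, and the copies Tgtp1 and Tgtp2 at 33 of 35. Irgm2 and Tgtp1, a regulator and an effector, shared 30 of the 35 bases. Irgm1 was less alike, at 19 of 35 with Irgm2 and with Igtp, 21 with Tgtp1 and 22 with Tgtp2. The stretches were aligned on the ISRE match, so its fixed letters agreed in advance. Both patterns occurred together in 4 of the 6 member promoters. Over all 32851 promoters of the table, 7.02% held the GAS pattern, 2.98% the ISRE pattern and 0.332% both. Among other interferon-inducible genes, 5 of 6 promoter windows of guanylate-binding proteins, from 5 of the 11 listed genes, held the ISRE pattern and 2 both. Of 6 windows of other IRG genes, 2 held the ISRE pattern and 2 both. Of 7 windows of the type I interferon relay genes read below, 1 held the ISRE pattern and 0 both. No match in a window says only that these letters are not in it.

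The libraries were checked against their labels. Vsig4, the deleted gene, had 9, 6, 2 and 4 counts in KO 1 to 4, against 22498 to 46735 counts in the WT libraries. Total counts per library ran from 15264043 to 19513844. Kupffer markers were abundant in every library: the 16 of them summed to 8430 to 25903 CPM in KO and 22484 to 40726 CPM in WT (CPM, counts scaled to library size with TMM factors). Transcripts of the melanoma were present as well, with 10 markers such as Pmel, Tyrp1 and Dct summing to 2864, 4058, 14288 and 7365 CPM in KO 1 to 4, and 648, 567, 6460 and 5452 CPM in WT 1 to 4. KO 3, highest in melanoma markers and lowest in Kupffer markers, stood apart, as did WT 1 and WT 2 at the other end, and IRG values are therefore also given without them.

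All 7 members had lower mean values in KO, by 1.86-fold for Irgm1 up to 3.04-fold for Tgtp2. Of all genes tested, 50.4% had a negative log2 fold change, and 2.29% one below -1, as did 6 of the 7 members. In 0 of the 7 did every KO library lie below every WT library (2.85% of all genes did), and none passed the threshold of an adjusted p of 0.05 in edgeR's quasi-likelihood test. Across all genes that test called 1 gene lower in KO, Vsig4 itself, or 0.0063% of genes; DESeq2 also called none of the 7, and 0.241% of genes lower. In bulk RNA a lower value cannot be told apart between fewer cells that express a gene and less of its RNA per cell. With the replicate number as a block, 6 of the 7 fell, all but Tgtp1, where 5.01% of all genes were called lower and 8.98% higher. The labels state no pairing, and the block was chosen from these same data, by correlations that cannot show a pairing. The median log2 fold change was -1.05 over the 3 regulators and -1.39 over the 4 effectors, against -0.0028 over all genes. The number of blocked calls, over all genes as over the members, varied with the pair left out, as given below.

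Among the regulators, Irgm1 (ENSMUSG00000046879, chromosome 11, 48752795 to 48762510, minus strand; positions are as deposited, and the build they belong to was not settled) had 153, 114, 43.1 and 54.7 CPM in KO 1 to 4, and 147, 226, 109 and 198 CPM in WT 1 to 4. KO 1 and KO 2 lay within the WT range, while KO 3 and KO 4 lay below every WT library. The log2 fold change of KO over WT was -0.90 ± 0.41 (SE; edgeR adjusted p = 0.492), and -1.03 ± 0.27 (adjusted p = 0.0453) with the block.

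Irgm2 (ENSMUSG00000069874, chromosome 11, 58090444 to 58113608, plus strand) had 129, 81.5, 31.9 and 62.0 CPM in KO 1 to 4, and 159, 205, 97.9 and 178 CPM in WT 1 to 4. Only KO 1 reached into the WT range. Its log2 fold change was -1.07 ± 0.40 (edgeR adjusted p = 0.492), and -1.19 ± 0.21 (adjusted p = 0.0254) with the block. Igtp (ENSMUSG00000078853, chromosome 11, 58090382 to 58098417, plus strand) had 65.6, 36.9, 16.3 and 27.4 CPM in KO 1 to 4, and 71.0, 105, 44.0 and 81.8 CPM in WT 1 to 4. Here too KO 1 alone overlapped WT. The log2 fold change was -1.05 ± 0.42 (edgeR adjusted p = 0.492), and -1.16 ± 0.24 (adjusted p = 0.0286) with the block. The deposited span of Igtp overlaps that of Irgm2 on the same strand by 7974 of its 8036 bases, and 5.16% of the 100-base stretches of Igtp transcripts also occur in Irgm2 transcripts, and how reads from the shared part were assigned is not stated.

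The effector Iigp1 (ENSMUSG00000054072, chromosome 18, 60509099 to 60525706, plus strand) had 171, 83.9, 30.6 and 47.1 CPM in KO 1 to 4, and 207, 284, 131 and 316 CPM in WT 1 to 4. WT 4 had the highest value of the 8 libraries and KO 3 the lowest, and KO 1 lay above WT 3. The log2 fold change was -1.50 ± 0.52 (edgeR adjusted p = 0.492), and -1.73 ± 0.35 (adjusted p = 0.0284) with the block. Ifi47 (ENSMUSG00000078920, chromosome 11, 48967414 to 48987801, plus strand) had 109, 73.8, 22.0 and 34.6 CPM in KO 1 to 4, and 121, 180, 71.8 and 140 CPM in WT 1 to 4. KO 1 and KO 2 lay above the lowest WT library. Its log2 fold change was -1.10 ± 0.49 (edgeR adjusted p = 0.492), and -1.29 ± 0.28 (adjusted p = 0.0298) with the block.

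Tgtp2 (ENSMUSG00000078921, chromosome 11, 48948021 to 48955033, minus strand) had 49.2, 21.5, 9.18 and 10.2 CPM in KO 1 to 4, and 57.6, 99.0, 30.3 and 86.8 CPM in WT 1 to 4. Its log2 fold change, -1.60 ± 0.58, was the lowest of the 7 (edgeR adjusted p = 0.492), and with the block it was -1.81 ± 0.41 (adjusted p = 0.0325). Tgtp1 (ENSMUSG00000078922, chromosome 11, 48876154 to 48884999, minus strand) was the least expressed member, with 9.02, 4.18, 1.83 and 1.73 CPM in KO 1 to 4, and 7.33, 15.7, 6.56 and 10.9 CPM in WT 1 to 4. KO 1 lay above the WT libraries 1 and 3. The log2 fold change was -1.27 ± 0.56 (edgeR adjusted p = 0.492), and -1.51 ± 0.45 (adjusted p = 0.0605) with the block. The levels of these copies are uncertain: 73.1% of the 100-base stretches of Tgtp1 transcripts also occur in another gene, nearly all in Tgtp2, and how reads that match both were counted is not given in the sources used here. Tgtp1, Tgtp2 and Ifi47 also lie within the deposited span of Olfr56, an olfactory receptor gene, and 6900 of the 8846 bases of the Tgtp1 span overlap Gm12185, another IRG gene. With the counts of both Tgtp copies summed, the log2 fold change was -1.56 ± 0.58 (edgeR adjusted p = 0.492), and -1.77 ± 0.41 (adjusted p = 0.0336) with the block. The adjusted p is the same for every member without the block because the adjustment gives genes of neighbouring rank a common value; unadjusted, 5 of the 7 had a p under 0.05, against 4.56% of all genes lower in KO at that level.

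**Figure D1:**
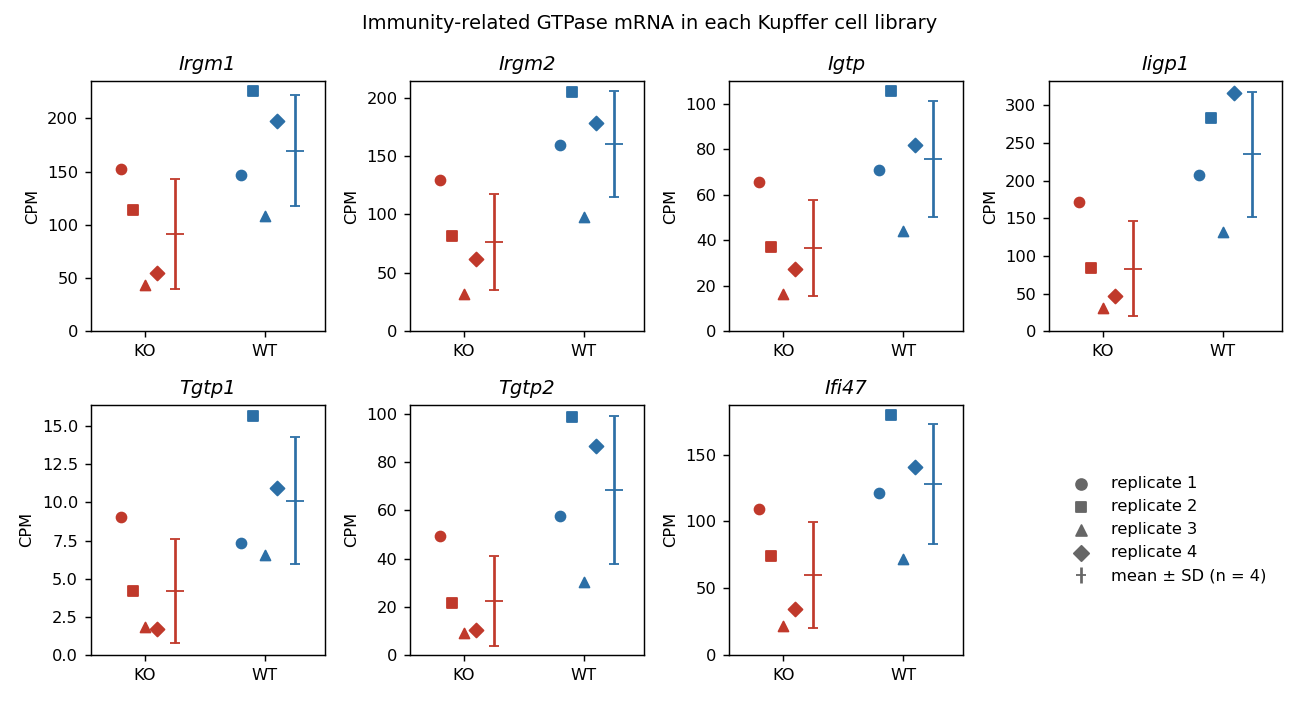
Each panel plots the CPM of 1 member (vertical axis, from 0) in the 4 KO and the 4 WT libraries, with the marker shape giving the replicate number and the bar the mean ± SD. In every panel KO 1 lies inside the WT range and KO 3 and KO 4 lie below all WT libraries.

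Per length of transcript, the order of the members was nearly the same in both genotypes. In KO, Ifi47 had the highest level at 24.5 ± 15.4 FPKM (the authors' values, scaled to transcript length and library total; SD, n = 4), followed by Irgm2 (20.96 ± 10.6 FPKM), Igtp (18.3 ± 9.94 FPKM), Irgm1 (15.9 ± 8.44 FPKM), Iigp1 (14.4 ± 10.4 FPKM), Tgtp2 (7.72 ± 6.14 FPKM) and Tgtp1 (1.32 ± 1.03 FPKM). In WT the order was Ifi47 (49.8 ± 16.003 FPKM), Irgm2 (41.7 ± 10.9 FPKM), Iigp1 (38.9 ± 14.0 FPKM), Igtp (35.9 ± 11.1 FPKM), Irgm1 (28.2 ± 8.22 FPKM), Tgtp2 (22.4 ± 9.82 FPKM) and Tgtp1 (3.04 ± 1.16 FPKM). The mean ± SD ranges of neighbours in these orders overlapped, except those of Tgtp2 and Tgtp1 in WT. Iigp1 stood below Igtp and Irgm1 in KO and above both in WT.

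The make-up of the IRG transcripts within a library also differed in its mean. Iigp1 made up 15.7, 12.8, 12.5 and 12.3% of the summed FPKM of the 7 members in KO 1 to 4, and 17.0, 15.9, 17.2 and 20.4% in WT 1 to 4. Every KO library thus lay below every WT library, but narrowly, at 15.7% in KO 1 against 15.9% in WT 2. It was the only 1 of the 7 shares to do so, and the shares of all other members overlapped between genotypes. Shares of this kind were not computed for other genes. Irgm1 made up 15.9 ± 1.95% in KO and 12.9 ± 0.949% in WT (SD, n = 4 each), with overlap. The ratio of summed effector to summed regulator FPKM was 0.994, 0.881, 0.740 and 0.655 in KO 1 to 4, and 1.03, 1.09, 0.955 and 1.17 in WT 1 to 4, with KO 1 above WT 3. These shares do not depend on how libraries are scaled. They were compared without a test, since the members were chosen with results known. The ratio tended to be higher in libraries with a higher summed FPKM of the 7 members. That sum was 184, 113, 44.6 and 70.2 FPKM in KO 1 to 4, and 193, 281, 134 and 272 FPKM in WT 1 to 4. Whether the make-up differed between genotypes apart from this level was not tested.

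**Figure D2:**
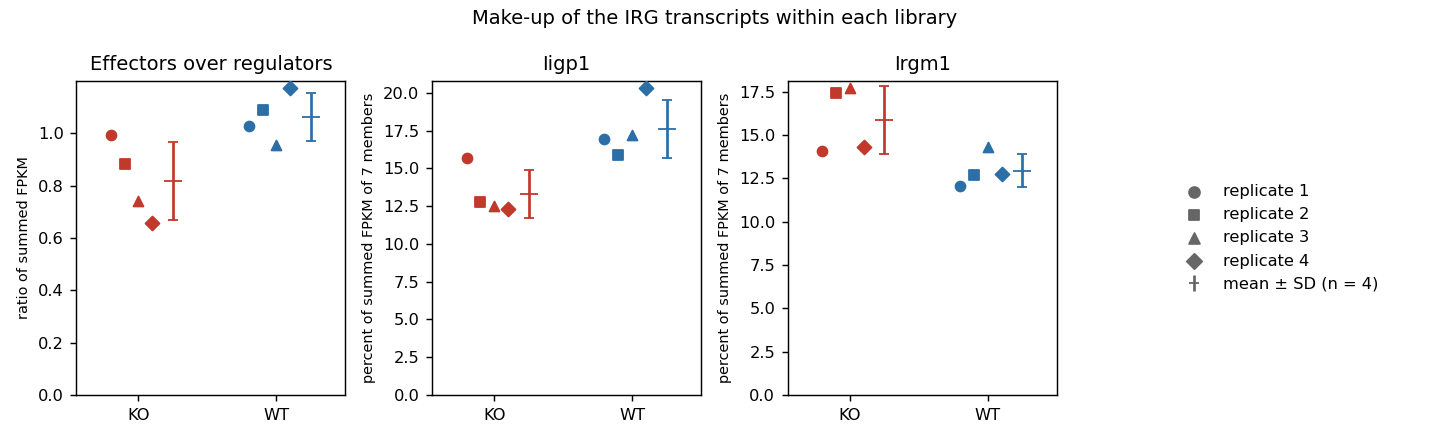
The panels plot, for each library, the ratio of summed effector to summed regulator FPKM, and the percent of the summed FPKM of the 7 members that was Iigp1 and Irgm1 (vertical axes from 0; bars, mean ± SD of 4 libraries). The Iigp1 share is at most 15.7% in KO and at least 15.9% in WT, while the Irgm1 share and the ratio overlap between genotypes.

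The difference between genotypes was unequal over the replicate numbers. Between KO 1 and WT 1 the members differed by -0.30 to 0.28 on the log2(CPM + 0.5) scale, with Irgm1 and Tgtp1 above WT. Between libraries numbered 2 the differences were -2.18 to -0.98, between those numbered 3 they were -2.08 to -1.32, and between those numbered 4 they were -3.03 to -1.51. Irgm2, Igtp, Iigp1, Tgtp2 and Ifi47 were lower in KO at all 4 numbers, as were 19.6% of all genes. Irgm1 and Tgtp1 were lower at numbers 2, 3 and 4 alone, as were 8.47% of all genes. Without pair 1 the blocked fit called all 7 members lower, of 164 genes lower in all, and without pair 4 it called 5, of 754. Without pair 2 or pair 3 it called 1 gene lower each, and no member. The median log2 fold change of the members was then -1.30 without pair 2 and -1.15 without pair 3, against -1.29 with all pairs.

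**Figure D3:**
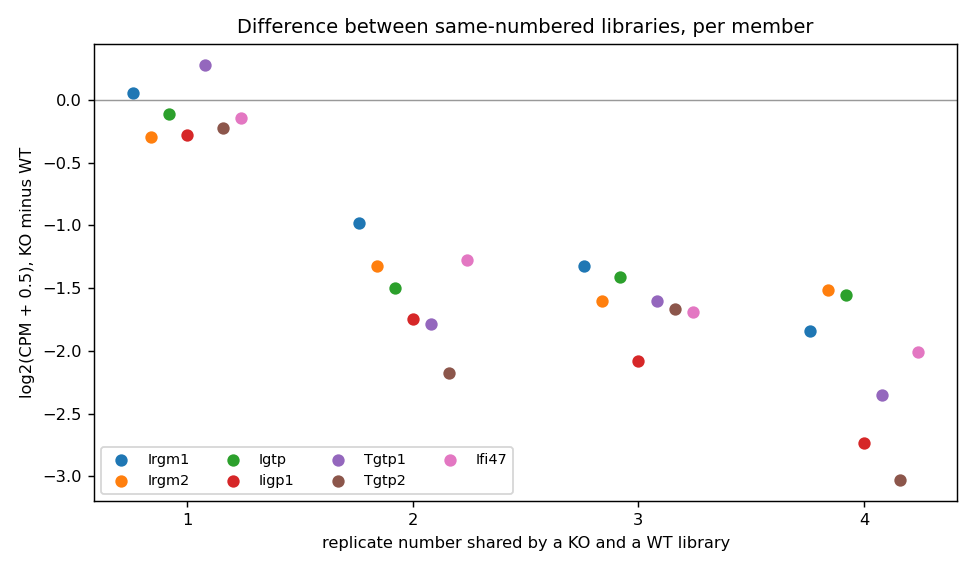
For each replicate number (horizontal axis) the points give the difference of the KO from the WT library of that number on the log2(CPM + 0.5) scale, in 1 colour per member. The points of number 1 lie around 0 (from -0.30 to 0.28), and all points of numbers 2, 3 and 4 lie at -0.98 or lower.

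Melanoma and Kupffer content differed among the libraries as well. The 7 members summed to 686, 416, 155 and 238 CPM in KO 1 to 4, and 771, 1114, 491 and 1012 CPM in WT 1 to 4. The lowest IRG sum was in KO 3, which had the most melanoma RNA, but WT 4 had the second highest sum with 5452 CPM of melanoma markers. With the melanoma markers as a covariate the median log2 fold change of the members was -0.70, against -1.10 without it. Leaving out the libraries that stood apart (KO 3, WT 1 and WT 2) gave a median of -0.60. Of these, KO 3 had the lowest and WT 2 the highest IRG sum, so leaving them out by itself narrows the difference. edgeR called none of the 7 in either fit (adjusted p of at least 0.589 and 0.937). Set against the Kupffer markers without Vsig4, the members had 26.5, 16.5, 18.4 and 12.3 counts per 1000 marker counts in KO 1 to 4, and 20.4, 30.1, 23.3 and 42.2 in WT 1 to 4. Scaled to these markers, the median of the members was -0.59 while that of all genes was 0.79. With the block, all 10 melanoma markers rose and 9 of the 16 Kupffer markers, Vsig4 included, fell in the fit that called 6 members. The melanoma sum was higher in KO, and the Kupffer sum lower, at all 4 replicate numbers. The part of melanoma RNA in the lower IRG values was not tested.

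T cells and NK cells, the known source of interferon gamma, were traced by 12 markers, which summed to 227, 163, 63.7 and 58.2 CPM in KO 1 to 4, and 148, 259, 99.3 and 87.7 CPM in WT 1 to 4 (exact 2-sided permutation p = 0.60). In both genotypes libraries 3 and 4 had the lower sums, and WT 4, with the lowest T and NK sum of WT, had the second highest IRG sum of the 8 libraries. Of the 12 markers, Gzma, a granule protease of cytotoxic cells, fell with the block (edgeR adjusted p = 0.0357). Ifng itself had 65, 43, 36 and 9 counts in KO 1 to 4, and 76, 133, 31 and 35 counts in WT 1 to 4. It was not called (log2 fold change -1.05 ± 0.63, edgeR adjusted p = 0.492, and 0.104 with the block). The part of these cells in the IRG values was not tested.

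**Figure D4:**
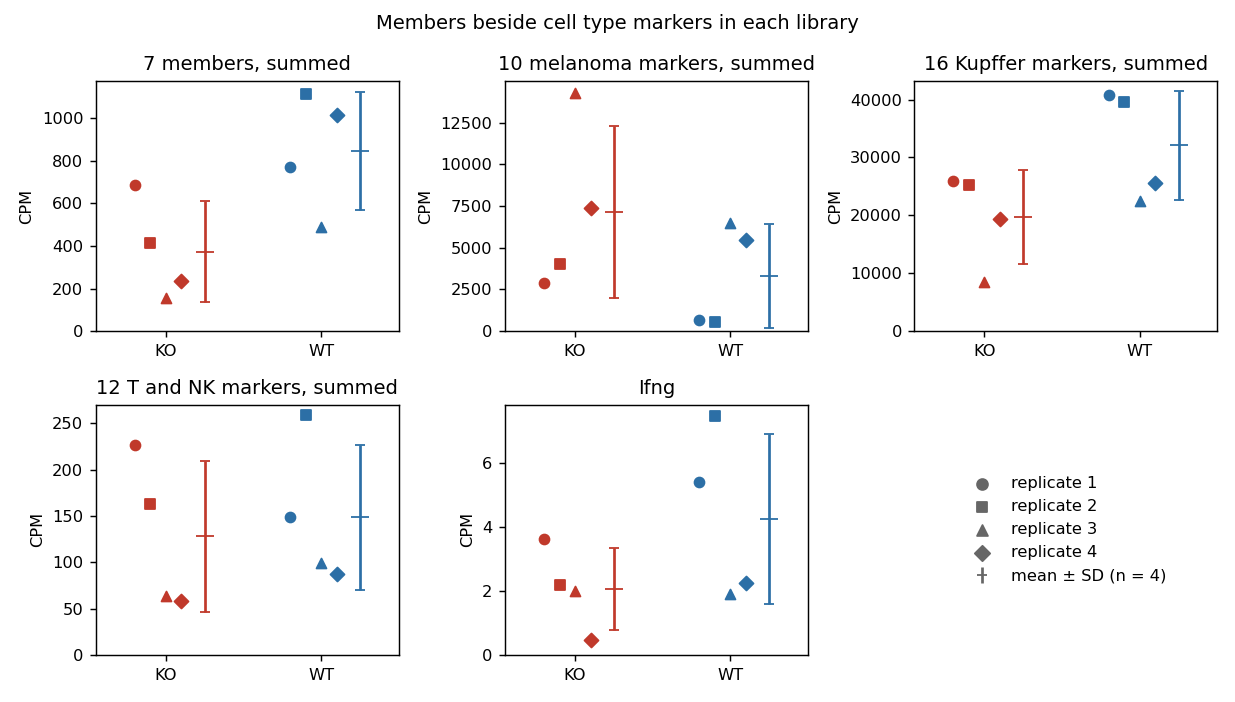
The panels plot summed CPM (vertical axes from 0) of the 7 members, 10 melanoma markers, 16 Kupffer markers and 12 T and NK markers, and the CPM of Ifng, in the KO and WT libraries, with the mean ± SD of 4 libraries. KO 3, with 14288 CPM of melanoma markers, has the lowest member and Kupffer sums, at 155 and 8430 CPM.

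Other IRG genes of the table were read the same way. Of 11 with a row, 9 were tested, 8 of them with lower values in KO (median log2 fold change -0.67 over the 9, against -0.0028 over all genes), and none passed without the block. That median was -0.27 with the melanoma covariate, -0.16 without KO 3, WT 1 and WT 2, and -0.12 with scaling to Kupffer markers, with none called. With the block, which called 5.01% of all genes lower, 5 of the 9 fell: Gm4951 (Ifgga2 in RefSeq; blocked log2 fold change -1.30 ± 0.28), F830016B08Rik (Ifgga4; -1.31 ± 0.29), Gm12185 (Irgb2b1; -1.22 ± 0.26), Gm12250 (Irgb10; -1.17 ± 0.28) and Gm5431 (Irgb9b8; -0.81 ± 0.20), with edgeR adjusted p between 0.0291 and 0.0381. The genes 9930111J21Rik1 and 9930111J21Rik2 had blocked values of -0.65 ± 0.21 and -0.56 ± 0.18, and Gm4841 (Ifgga3) of -0.62 ± 0.61, none of which passed. Irgq, a distant family member, had 17.5 ± 0.883 CPM in KO and 15.9 ± 0.647 CPM in WT (log2 fold change 0.13 ± 0.11, edgeR adjusted p = 0.536). Irgc1 and Gm12187 were at or near 0 counts.

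**Figure D5:**
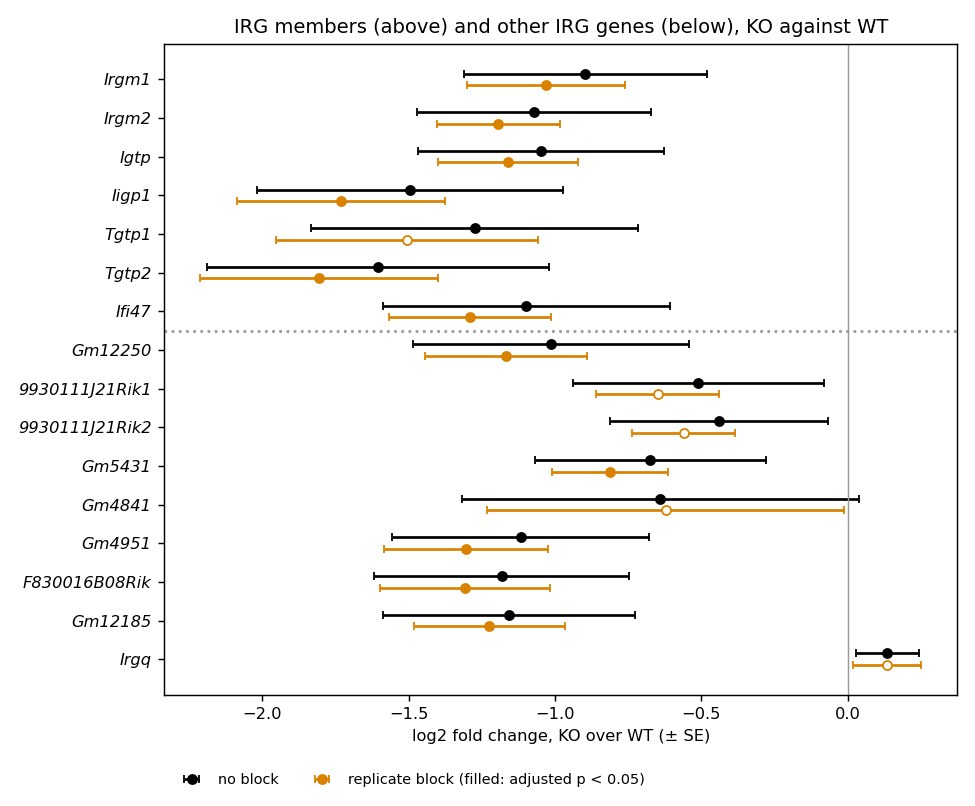
Points give log2 fold changes of KO over WT with their SE (horizontal axis) for the 7 members above the dotted line and the 9 other tested IRG genes below it, in black without and in orange with the replicate block, the orange ones filled where the blocked edgeR adjusted p was under 0.05. All members lie between -1.81 and -0.90, and Irgq lies at 0.13.

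Genes that act with or above the IRGs were read from lists chosen with earlier results of these data known. No gene of these lists passed without the block, and the counts with it stand against the 5.01% of all genes called lower. Guanylate-binding proteins, which gather on the same vacuoles, had lower values in all 10 tested (median -1.12), and 9 fell with the block, among them Gbp2 (143, 92.7, 40.0 and 66.2 CPM in KO 1 to 4, and 187, 256, 96.8 and 187 CPM in WT 1 to 4), Gbp9, Gbp3 and Gbp7. Of the interferon gamma receptor and relay, the transcription factor Irf1 fell with the block (142 ± 50.6 CPM in KO and 285 ± 59.6 CPM in WT). The receptor chain Ifngr1, which did not pass, had 447 ± 147 CPM in KO and 539 ± 114 CPM in WT. Of the type I interferon relay 3 of 7 fell (Irf7, Stat2 and Usp18), and of 4 tested interferon and inducer genes 1 fell, Il27. The median of the type I relay was -0.42, and it was -0.07 with the melanoma covariate, 0.04 without KO 3, WT 1 and WT 2, and 0.21 with scaling to Kupffer markers. For the interferon and inducer genes it was -0.68, and under the same alternatives -0.12, -0.02 and 0.01. For the guanylate-binding proteins these alternatives gave -0.66, -0.60 (over 11 genes that passed the filter there) and -0.53, and none of them called a gene of these lists. The ATG8 conjugation machinery is needed for effectors to reach vacuoles. It was read in a list that also held adaptors such as Sqstm1. The median of that list was -0.15 over 15 genes, with none called. Its most expressed gene was the adaptor Sqstm1, at 495 ± 123 CPM in KO against 401 ± 53.9 CPM in WT. Gabarap came next, at 231 ± 35.1 CPM in KO against 260 ± 36.8 CPM in WT. Of 6 further partners, the nucleic acid sensors Zbp1 and Aim2 and the inflammatory caspase Casp4 fell with the block. The median of these partners was -0.59, and under the same alternatives -0.21, -0.14 and 0.06.

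The members varied together over the libraries beyond the genotype means. After the genotype mean was taken out, the 21 pairs of members correlated at 0.865 to 0.990 over the 8 libraries (Pearson's r of log2 CPM, a description; the points share libraries, depth and melanoma content). Irgm1 and Ifi47 were the closest, and Irgm2 and Tgtp1 the least close. The 8 other genes most like the mean of the members, of 11185 ranked, were Zbp1 (r = 0.993), Dnaaf3, Zbtb20, Nlrc5, Gbp7, Zfp160, Ddx43 and Gbp6 (0.985). Of these, Zbp1, Dnaaf3, Gbp7 and Gbp6 fell with the block. Nlrc5, a regulator of MHC class I genes, had 79.0 ± 46.1 CPM in KO and 136 ± 38.4 CPM in WT, a difference that did not pass (blocked edgeR adjusted p = 0.0502). Of all ranked genes, 3.41% had an r above 0.9.

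In the annotation deposited with the table, 6 of the 7 members carried the terms for response to interferon beta, GTP binding and the endoplasmic reticulum membrane. Ifi47 shared no term with another member. The terms for autophagosome assembly and the phagocytic cup were shared by the 3 regulators and by no effector.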

How the data were processed

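RNA of 8 sorted Kupffer cell libraries, 4 KO and 4 WT, was analysed from 1 table. Per the file headers the authors deposited raw counts per gene and FPKM values; the deposited FPKM equalled the count over exonic size and column total within 0.015 for 100% of genes. HTSeq 0.6.1 and mm10 are named in the submitters' processing notes; the sources used here name no aligner, strand setting or annotation release. Exonic sizes and positions are other numbers of the deposited table; of 52073 identifiers shared with GENCODE M21 (GRCm38), 1435 had the same position, so positions are given as deposited. Column letters K and C were taken as KO and WT, and column digits as replicate numbers.

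Genes were kept by filterByExpr and scaled by TMM. The KO against WT comparison used edgeR 4.0.16 under R 4.3.3, with its 2-sided quasi-likelihood F test and Benjamini-Hochberg adjustment over 15870 genes and a threshold of 0.05. SEs were derived from the coefficient and F. The biological coefficient of variation was 33.3%. Marker sums were compared by exact permutation over 70 splits (smallest p 0.0286). DESeq2 1.42.0 and limma 3.58.1 on log2(FPKM + 1) were alternatives; scripts were tested on simulated data. The floor for an undetected gene was 3 counts (0.153 to 0.214 CPM), which covers counting error alone. Replicates differed beyond sampling noise (chi-square per degree of freedom of at least 10.02).

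KO and WT share the numbers 1 to 4. Deviations from genotype means correlated between same-numbered libraries at 0.561, 0.544, 0.660 and 0.290, all above 0.1, so blocked values are also given. The labels do not state a pairing, which was assumed from these correlations. Differently numbered libraries were not compared in this way. In both genotypes libraries 1 and 2 had lower melanoma sums than libraries 3 and 4. These correlations alone thus cannot show that same-numbered libraries belong together. Blocked p-values therefore rest on a pairing taken from the same data. For the mean of the members the deviations (log2 CPM) were 1.18 in KO and -0.10 in WT at number 1, and 0.35 and 0.53 at number 2. They were -1.01 in KO and -0.72 in WT at number 3, and -0.52 and 0.29 at number 4. At numbers 1 and 4 the signs thus differed between KO and WT.

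The members, the gene lists and the tests were chosen with earlier results of these data known. The interferon gamma relay list is not reported here in full. The rule for named genes took all members, all other IRG genes, up to 4 genes per list past the blocked threshold or else the 2 most expressed, and the 8 genes most like the members with a mean FPKM of at least 1. The block with the melanoma covariate was chosen after seeing the data.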

Additional observations from a re-analysis of the deposited data

Results flagged for a closer look

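The hepatocyte marker sum stood out in 1 of the 34 groups of 4 libraries that were examined for a value far from the rest, of which chance flags about 5%. The KO libraries had 155 to 663 CPM, and in WT the library WT 3 had 1792 CPM, against 398 to 567 CPM in the other WT libraries. WT 3 also had the lowest value of WT for each of the 7 members.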

How the results depend on the processing

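All 7 members kept a negative log2 fold change in every alternative run, and none was called without the replicate block. Their median ran from -1.56 (without KO replicate 1) to -0.83 (without KO replicate 3) with 1 library left out, and was -2.07 with block and melanoma covariate together, where 2 genes in all and no member were called; the cause was not tested. With the replicate block 2220 genes and 6 members were called. Without pairs 1, 2, 3 and 4 the block called 207, 2, 1 and 2229 genes, and 7, 0, 0 and 5 members, with a median of -1.68 to -1.09. DESeq2 called 66 genes and no member. With no filter on low counts 2 genes were called, and with 1 library left out 1 to 2. Scaling to Kupffer markers moved the median of all genes to 0.79. As mean log2 CPM, the Kupffer list, which holds Vsig4, differed by -1.36 (exact permutation p = 0.0286, against 0.143 for the sum), and the dendritic list by 0.026, against -0.15. The deletion of Vsig4 (log2 fold change -12.9) by itself lowers that Kupffer mean in every KO library. Its p is thus no measure of Kupffer content, and the mean without Vsig4 was not computed. With 1 library left out no marker sum passed. Depth limits Tgtp1, with 33 counts in KO 3 and KO 4.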

Other observations

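Markers of other cell types were detected in the Tim-4 gate. Their sums were compared over libraries without pairing. Monocyte markers summed to 397 ± 74.5 CPM in KO and 467 ± 79.5 CPM in WT (exact permutation p = 0.257), dendritic cell markers to 247 ± 57.9 CPM in KO and 273 ± 59.3 CPM in WT (p = 0.571, exact permutation), and B cell markers to 101 ± 18.0 CPM in KO and 136 ± 27.2 CPM in WT (exact permutation p = 0.0857; SD, n = 4 each). Sinusoidal endothelial markers summed to 381 ± 158 CPM in KO and 515 ± 165 CPM in WT (exact permutation p = 0.343), hepatocyte markers to 431 ± 268 CPM in KO and 819 ± 653 CPM in WT (exact permutation p = 0.286), Kupffer markers to 19747 ± 8103 CPM in KO and 32125 ± 9412 CPM in WT (exact permutation p = 0.143) and melanoma markers to 7144 ± 5129 CPM in KO and 3282 ± 3116 CPM in WT (exact permutation p = 0.229). Adjusted over the 8 lists the lowest p was 0.457. The Kupffer sum holds the deleted Vsig4. Without that gene its means were 19747 CPM in KO and 29989 CPM in WT, which were not tested. At all 4 replicate numbers the melanoma sum was higher in KO and the Kupffer, B cell and endothelial sums were lower. With the replicate block edgeR called all 10 melanoma markers higher, and lower were 9 of 16 Kupffer, 3 of 6 endothelial, 2 of 7 hepatocyte, 1 of 5 B cell, 1 of 8 monocyte and 1 of 12 T and NK markers; of 7 dendritic cell markers the lowest edgeR adjusted p was 0.0553.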
